A study of Mus musculus with 7 samples.

Results

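Lyz1, Lyz2, Mmp7, Ang4, Pla2g2a and Itln1 encode antimicrobial and defensin-processing proteins, other than the defensins themselves, that mouse Paneth cells store in their granules. These 6 genes were chosen by name, with earlier results of these data known, and are 6 of 19938 genes with a transcript cluster of their own, the set of probes that the array joins to 1 gene value; each has 1 such cluster. They were followed over 7 Affymetrix arrays, 1 per sample of flow-sorted Paneth cells from mice aged 4 months. In 3 samples the mice were fed freely (ad libitum), and in 4 they received 60% of the ad libitum calories (calorie restricted); both diets lasted 4 to 7 weeks. The labels call the samples biological replicates, but do not give the strain, genotype or sex or say how many animals a sample holds, so p-values measure the spread between these samples.

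Paneth cells sit at the base of the small-intestinal crypts, beside the stem cells, and release granules into the crypt lumen when they sense bacteria. The granules carry peptides and enzymes that kill or bind microbes, and they are made continuously, so their transcripts are among the most abundant in the cell. Lyz1 is the lysozyme of mouse Paneth cells and cuts the peptidoglycan of bacterial walls, while Lyz2 encodes the lysozyme best known from macrophages and other myeloid cells. Mmp7 is the metalloprotease that cuts mouse alpha-defensin precursors into active peptides. Ang4 is a microbicidal ribonuclease of the angiogenin group, Pla2g2a a secreted phospholipase that attacks bacterial membranes, and Itln1 a lectin that binds sugars of microbial surfaces.

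Lyz1 and Lyz2 are neighbouring genes on chromosome 10 (RefSeq, assembly GRCm38.p6), and their upstream sequences are shown because the pair is so alike. The lines below give the 100 bases before each annotated start site, 5′ to 3′ on the minus strand of GRCm38.p6, at chr10:117292869-117292968 for Lyz1 and chr10:117282273-117282372 for Lyz2, with capitals at the bases that differ between them.
Lyz1: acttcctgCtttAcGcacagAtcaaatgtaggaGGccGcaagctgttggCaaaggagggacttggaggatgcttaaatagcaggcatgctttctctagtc
Lyz2: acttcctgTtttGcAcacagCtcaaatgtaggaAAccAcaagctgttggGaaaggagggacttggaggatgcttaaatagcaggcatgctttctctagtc
Compared base by base, 92 of the 100 positions were identical, and all 8 differences lay in the farther part. Over the same window, the other pairs among the 5 members with a promoter entry shared between 22% and 27% of positions. This likeness is of upstream DNA and was lower farther out, with 60.8% of positions identical over 250 bases. Transcripts and probes were not compared, so whether probes of one lysozyme gene also bind the transcript of the other was not tested. The array's annotation gives each a cluster of its own, 10372652 for Lyz1 and 10372648 for Lyz2.

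Mmp7 lies on chromosome 9, and its start region holds a match to the Tcf/Lef motif CTTTGAT, the letters bound by the transcription factors of Wnt signalling. Mmp7 has 2 promoter entries, and the match begins at base 5 from the start site of the first and at -247 from that of the second. It lies on the opposite strand, within chr9:7692083-7692112 on the plus strand of GRCm38.p6, and is in capitals below.
Mmp7: tgtcaggaaacATCAAAGtagctctgagaa
Searched on both strands of the 300 bases of each promoter entry, these letters were found in 3.73% of 32851 RefSeq promoters and in no promoter entry of Lyz1, Lyz2, Ang4 or Itln1. Also searched were the E box letters CAGCTG (16.3% of promoters), found in Lyz1 and Lyz2, and the TATA box letters TATAAA (13.6%), found in Mmp7. A match describes the letters only. Pla2g2a had no promoter entry. On the C57BL/6J reference its locus on chromosome 4 is classed as a transcribed pseudogene, because that strain carries a disrupting mutation, and whether the animals used here carried it is not given in the labels.

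None of the 6 genes differed detectably between the diets. With limma and Benjamini-Hochberg adjustment over 13409 genes, 0 of the 6 passed an adjusted p of 0.05 (adjusted p from 0.840 to 0.991), where 0.664% of all genes tested passed, 0.656% as higher under restriction and 0.00746% as lower. Also, 0 of the 6 had an unadjusted p below 0.05, against 9.30% of all genes, and for 0 of the 6 were the diets apart, against 10.2%. Differences below are given in log2 units as the restricted mean minus the ad libitum mean, ± the fit's standard error (SE), and group levels are mean log2 values ± SD (n = 4 calorie restricted, n = 3 ad libitum). An exact permutation test, two-sided, took the arrays in each of their 35 possible splits and can reach no p under 0.0286; its lowest p among the 6 genes was 0.343, for Ang4.

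The deposited log2 value of Lyz1 was 14.30, 14.34, 14.33 and 14.26 in the calorie restricted arrays, listed by replicate number here and for the genes that follow, and 14.30, 14.31 and 14.33 in those fed freely. The arrays lay within 0.08 of each other, and the diets overlapped fully. The difference was -0.0036 ± 0.052 (SE), with a 95% interval of -0.12 to 0.11, which spans 0.919-fold to 1.08-fold.

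Lyz2 stood at 12.78, 12.88, 12.95 and 12.68 in the restricted arrays and at 12.80, 12.74 and 12.83 in the ad libitum arrays. Both the highest and the lowest array were calorie restricted, with the ad libitum arrays between them. The group means were 12.82 ± 0.12 and 12.79 ± 0.04, a difference of 0.033 ± 0.078 with a 95% interval of -0.15 to 0.21. Because Lyz2 marks myeloid cells, their markers were read beside it. Of 20 macrophage and neutrophil markers, 9 were below 6.79, the level under which genes were not tested, on every array. These included the defining macrophage genes Csf1r (6.10 to 6.48), Adgre1 (5.14 to 5.25) and C1qb (6.18 to 6.51). Of the 10 that were tested 0 were called, and C1qa, Cd68 and Cx3cr1 lay between 6.70 and 7.62. The highest of the list was Ctss, a lysosomal protease of antigen-presenting cells, at 9.26 ± 0.22 in the restricted arrays against 8.82 ± 0.20. Its difference of 0.44 ± 0.15 had the smallest p of the list and did not pass over all genes (limma, adjusted p = 0.367). The mean of the 20 ranged from 6.57 to 6.66 in calorie restricted arrays and from 6.64 to 6.68 in ad libitum arrays.

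Mmp7 was at 13.92, 14.02, 14.01 and 13.69 in the restricted arrays and at 14.02, 13.94 and 13.91 in the ad libitum arrays. Calorie restricted replicate 4 was the lowest of all, and the other 3 lay within the ad libitum range. The difference was -0.048 ± 0.088, with a 95% interval of -0.25 to 0.16.

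For Ang4 the values were 13.48, 13.58, 13.53 and 13.33 in the restricted arrays and 13.52, 13.60 and 13.54 in the ad libitum arrays. Again calorie restricted replicate 4 was the lowest. The difference was -0.076 ± 0.073, with a 95% interval of -0.24 to 0.09, or 0.845-fold to 1.07-fold.

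Pla2g2a was at 13.48, 13.60, 13.66 and 13.39 in the restricted arrays and at 13.59, 13.41 and 13.31 in the ad libitum arrays. It was the member with the largest spread within the diets (SD 0.128), and the one whose lowest array was ad libitum. The difference was 0.093 ± 0.092, with a 95% interval of -0.12 to 0.30, so that up to 1.24-fold higher lies inside it.

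Itln1 was at 14.03, 14.06, 14.05 and 13.82 in the restricted arrays and at 14.08, 14.05 and 14.00 in the ad libitum arrays. All arrays but calorie restricted replicate 4 lay within 0.08 of each other. The difference was -0.052 ± 0.074, with a 95% interval of -0.22 to 0.12. Some mouse strains carry further intelectin genes that are nearly identical to Itln1, which its cluster may also detect.

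**Figure D1:**
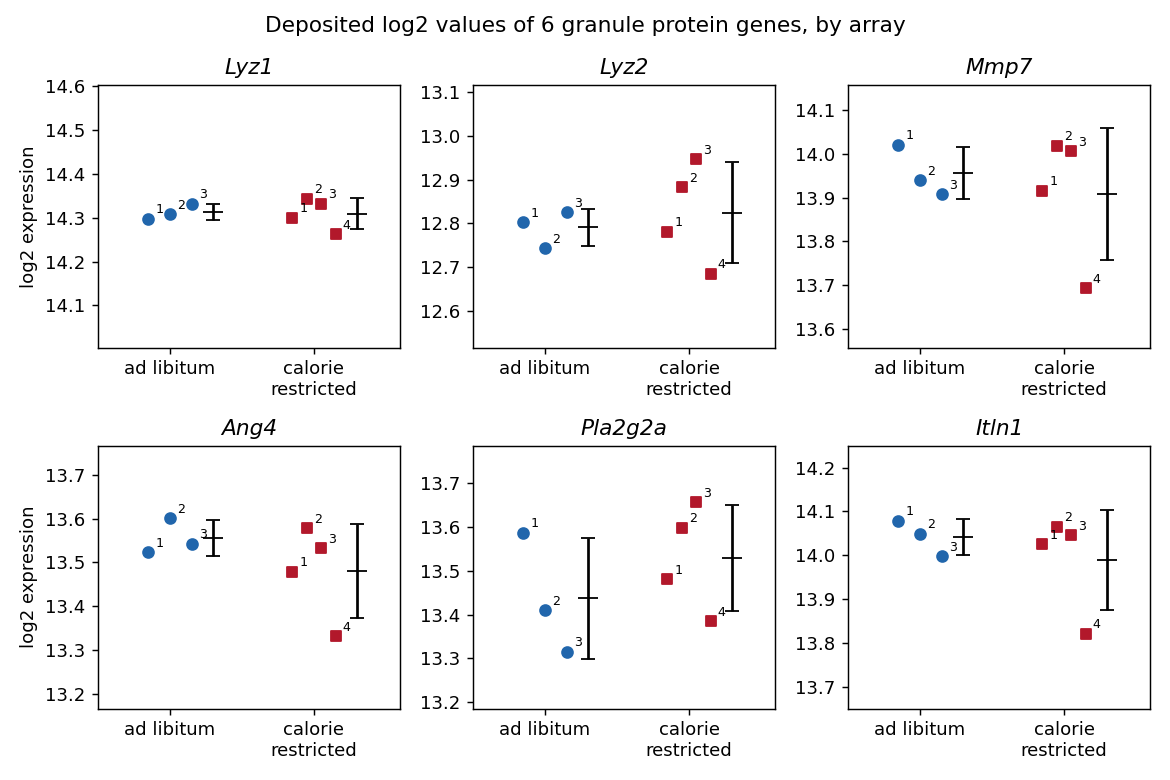
Deposited log2 values of the 6 genes, with ad libitum arrays as circles, calorie restricted arrays as squares, replicate numbers beside the points, and the mean ± SD as a bar. The diets overlap in every panel, and calorie restricted replicate 4 is the lowest array in 5 of the 6.

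Across the 6 intervals, the lowest bound was -0.25 (Mmp7) and the highest 0.30 (Pla2g2a), that is 0.840-fold to 1.24-fold on the array's scale. Of the 6 differences 4 were negative, where 45.8% of all genes tested were negative, and the median was -0.03 against 0.01 over all genes. Several of these signs turned when 1 array was left out. Lyz2 turned without calorie restricted replicate 3 (-0.0075) and Lyz1 without ad libitum replicate 3 (0.0061). Without calorie restricted replicate 4 the differences were 0.012 for Lyz1, 0.080 for Lyz2, 0.024 for Mmp7, -0.026 for Ang4, 0.14 for Pla2g2a and 0.0036 for Itln1, so that Lyz1, Mmp7 and Itln1 changed sign. After the array medians were set equal, Ang4 did so too, with Lyz1, Mmp7 and Itln1, and all 6 were positive; under that scaling the all-gene median was 0.10 in place of 0.01.

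Calorie restricted replicate 4 stood low for most of these genes. It was the lowest of the 7 for Lyz1, Lyz2, Mmp7, Ang4 and Itln1, while the same array was lowest for 20.3% of all genes tested and for 38 of the 99 genes with a mean of 13 or more. Ad libitum replicate 1 was lowest for 21.8% of all genes tested and for 28 of the 99, but for 0 of the 6. Averaged over the 6 genes, the deviation of calorie restricted replicate 4 from each gene's mean was -0.15 log2 units. This average was 0.08 in calorie restricted replicate 3, 0.07 in replicate 2 and between -0.02 and 0.04 in the remaining arrays. On calorie restricted replicate 4, Mmp7 deviated by -0.24 and Lyz1 by -0.05. The array was also the lowest for 8 of 14 other granule products, and the mean of 11 Paneth cell markers was 11.66 there against 11.89 to 12.20 on the other arrays. The mean of 12 goblet cell markers, which mark mucus-secreting cells, was 11.81 there against 12.01 to 12.31. How often calorie restricted replicate 4 was lowest also rose with level. It was lowest for 12.7% of genes with means from 6.79 to 8, 31.4% from 11 to 12, and 7 of the 10 at 14 or more. Its array median was 7.42, beside 7.44 and 7.42 in ad libitum replicates 2 and 3. The medians of the remaining arrays, ad libitum replicate 1 and the other calorie restricted arrays, lay between 7.24 and 7.29. In bulk RNA, fewer cells of a type and less RNA per cell cannot be told apart, and an effect of the array's scale at high levels was not tested.

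**Figure D2:**
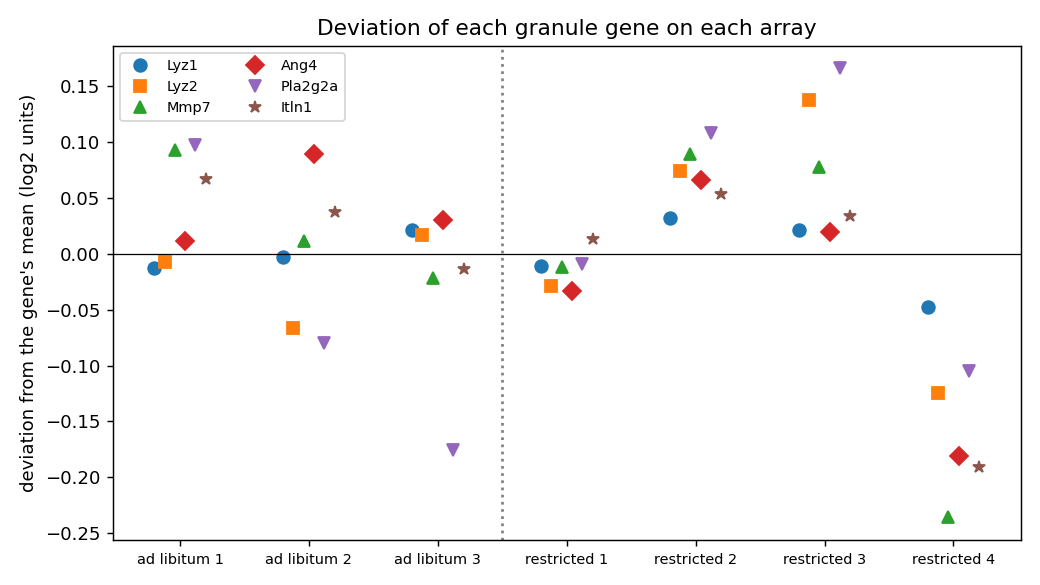
Deviation of each gene from its own mean over 7 arrays (vertical axis, log2 units) on each array (horizontal axis, ad libitum left of the dotted line, calorie restricted right of it). All 6 genes lie below 0 on calorie restricted replicate 4, where they average -0.15.

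The genes most like each member were taken as the 3 with the highest Pearson correlation of log2 values over the 7 arrays among all genes tested, as a description of these arrays. Mmp7 was followed by Casd1 (r = 0.992), Sirpa (r = 0.990) and Klf12 (r = 0.990), and Itln1 by Bambi (r = 0.995), Sirpa (r = 0.988) and Ccl6 (r = 0.987). Sirpa stood in both sets. Ccl6, a chemokine gene of the goblet list, was at 13.52, 13.63, 13.60 and 13.18 in the restricted arrays and 13.70, 13.62 and 13.48 in the ad libitum arrays, with the same low array as Itln1. The nearest genes to Lyz1 were 9330159F19Rik, Tmx4 and Cybc1 (r from 0.952 to 0.966), to Lyz2 Prpf18, Agt and Baiap2l1 (r from 0.977 to 0.981), and to Ang4 Amt, Vash2 and Mkln1 (r from 0.976 to 0.986). Pla2g2a had a different set, Ccdc166, Zfp664 and Zfp644 (r from 0.989 to 0.995), each lowest in ad libitum replicate 3 as Pla2g2a itself. Of the 17 genes named here, 14 were lowest in calorie restricted replicate 4, where 20.3% of all genes tested were. They were chosen for likeness to members of which 5 of 6 were lowest there, so the shared low array follows largely from the choice. Without calorie restricted replicate 4, r fell to 0.941 between Mmp7 and Klf12 and to 0.873 between Ang4 and Mkln1. All these values rest on the same 7 arrays, and no test goes with them.

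All 6 genes lay near the top of the arrays' range, which ended between 14.60 and 14.67. Lyz1 was within 0.288 to 0.353 log2 units of the brightest of 35556 clusters on each array, and between 6 and 9 clusters were brighter. Itln1 was 0.566 to 0.782 below the top and Mmp7 0.613 to 0.910. Ang4 and Pla2g2a were 1.02 to 1.34 below it, and Lyz2, with 1.73 to 1.92, had the most room. Among genes with means of 11 or more, the spread within the diets shrank with level. Its median was 0.147 over 1132 genes with means from 11 to 12, 0.134 over 396 genes from 12 to 13, 0.093 over 89 genes from 13 to 14, and 0.046 over the 10 genes at 14 or more, which is a thin band.

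The median size of the diet difference, without its sign, was 0.091, 0.082, 0.052 and 0.029 in the same bands. The largest in each band was 1.86, 1.41, 0.58 and 0.060. Of the 99 genes at 13 or more 0 were called, where 0.664% of all genes were. At so low a share, 0 of 99 does not set these genes apart. Within-group SDs were 0.030 for Lyz1 and 0.128 for Pla2g2a, the ends of the range over the 6. A narrow interval near the top of the range bounds the difference in signal and not that in transcript number. Muc2, the main intestinal mucin and a gene of the band from 13 to 14, was between 13.82 and 13.96 in the calorie restricted arrays and between 14.08 and 14.12 in the ad libitum arrays, a difference of -0.20 ± 0.06 that did not pass over all genes (limma, adjusted p = 0.249).

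**Figure D3:**
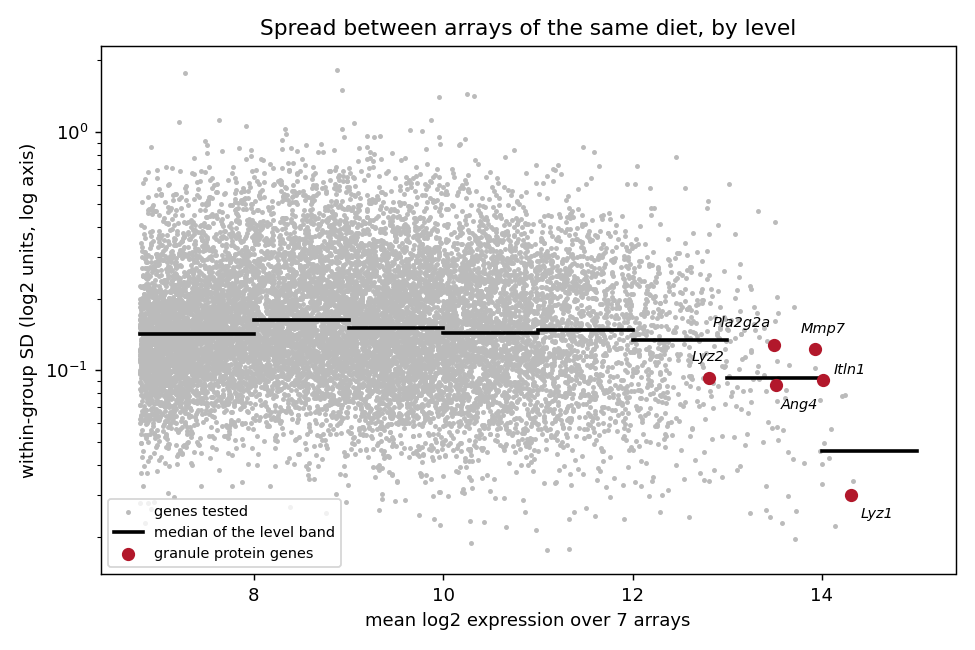
Within-group SD (vertical log axis) against mean log2 expression over 7 arrays (horizontal axis) for all genes tested, with black lines at the median of each level band. Lyz1 lies at the lower right, with an SD of 0.030, and the band at 14 or more has a median of 0.046.

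Among other granule products, a list of 31 genes of which 14 could be tested, 0 rose and 0 fell (limma, adjusted p below 0.05 over all genes), and 3 had an unadjusted p under 0.05. The other 17 included most alpha-defensins, whose clusters carry several gene names. The median difference over the 14 was -0.05, against 0.01 over all genes, and 0.03 after median centring. Defa24, an alpha-defensin that Mmp7 would process, was at 14.00 ± 0.06 against 14.05 ± 0.03 and the colipase gene Clps at 14.23 ± 0.08 against 14.28 ± 0.07. Reg4, a secreted lectin, was at 13.88 ± 0.12 against 14.00 ± 0.07. The 3 largest differences were in products that lay lower on the scale. The mucosal pentraxin Mptx1 was at 10.60 ± 0.79 against 12.02 ± 0.63 (adjusted p = 0.311), the bactericidal lectin relative Reg3a at 8.46 ± 0.11 against 7.16 ± 0.83 (adjusted p = 0.185), and Reg1 at 11.46 ± 0.43 against 10.35 ± 1.02 (adjusted p = 0.481). The Reg3a difference of 1.30 moved with single ad libitum arrays. It was 1.76 without replicate 3, where it passed (limma, adjusted p = 0.0123), 0.97 without replicate 1 (adjusted p = 0.220) and 1.16 without replicate 2 (adjusted p = 0.684).

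**Figure D4:**
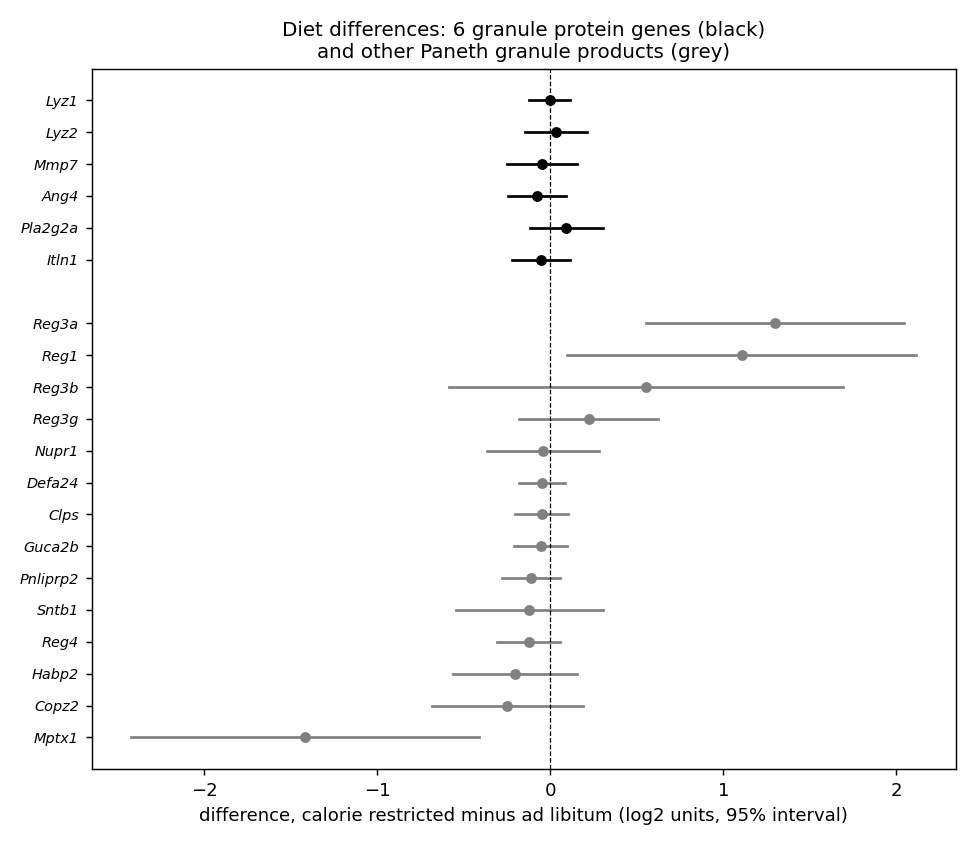
Difference between the diets with its 95% interval (horizontal axis, log2 units) for the 6 genes in black and 14 other granule products in grey. The intervals of the 6 genes all include 0 and stay between -0.25 and 0.30, while those of Reg3a, Reg1 and Mptx1 are wider and exclude 0 before adjustment.

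Relatives of the 6 genes were read for each family. In the lysozyme family 4 of 10 listed genes were tested and 0 were called. Besides Lyz1 and Lyz2 these included Spaca3, a sperm acrosome lysozyme relative, at 7.46 ± 0.21 against 7.68 ± 0.07. In the angiogenin and RNase A family 5 of 19 were tested and 0 were called, and the shared cluster of Ang and Rnase4 was not used. The pancreatic-type ribonuclease gene Rnase1 was at 13.62, 13.84, 13.72 and 13.45 in the restricted arrays and at 13.91, 13.85 and 13.52 in the ad libitum arrays, with calorie restricted replicate 4 lowest as for Ang4. The Ang4 relative Ang2 was at 7.80 ± 0.18 against 8.03 ± 0.06 (limma, adjusted p = 0.611), with the diets apart, and Ang6 at 8.58 ± 0.20 against 9.04 ± 0.63. Near-identical copies of this family may share probes, so these values are uncertain.

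Of 12 secreted phospholipase A2 genes and their receptor, 11 were tested and 1 rose. That gene was Pla2g12b, which acts in lipoprotein secretion and is not an antimicrobial phospholipase. It was at 10.29, 10.36, 10.25 and 10.31 in the restricted arrays and at 9.55, 9.16 and 9.53 in the ad libitum arrays, so the diets did not overlap. It rose by 0.89 ± 0.11 (limma, adjusted p = 0.0178). Leaving out calorie restricted replicate 1, 2 or 3 ended the call, at adjusted p = 0.0767, 0.0854 and 0.0713 in limma. Pla2g2e, which belongs to the same gene cluster as Pla2g2a, was at 7.41 ± 0.11 against 7.64 ± 0.08 (adjusted p = 0.481). A test of the difference between Pla2g12b and Pla2g2a was not made.

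Of 27 matrix metalloproteases and inhibitors 10 were tested and 0 were called, and 13 were below 6.79 on every array. Timp3, an inhibitor of metalloproteases, was at 7.83 ± 0.18 against 7.39 ± 0.14 (limma, adjusted p = 0.231). Among Itln1 and other lectins 6 of 8 were tested and 1 rose. Lgals3, a galactoside-binding lectin, was at 10.88, 10.46, 10.61 and 10.83 in the calorie restricted arrays and at 9.82, 9.13 and 9.72 in the ad libitum arrays, and rose by 1.14 ± 0.18 (limma, adjusted p = 0.0411). That call was near the threshold and ended without any one of the 4 calorie restricted arrays (adjusted p = 0.0830 to 0.143) or without ad libitum replicates 2 or 3 (adjusted p = 0.0706 and 0.0591). The goblet lectin Zg16 was at 12.97 ± 0.06 against 12.00 ± 0.92, with ad libitum replicate 1 at 10.99.

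Of 28 measured genes of the secretory machinery 0 were called, with a median difference of -0.07, and of 16 Paneth lineage regulators 0 were called, with a median of 0.0042. Of 11 Paneth cell markers 0 were called, with a median of -0.09. Markers of absorptive enterocytes differed between the diets, with 11 of 26 called higher under restriction, where 0.656% of all genes tested were. Among them was Cyp2b10, a cytochrome P450, higher by 1.79 ± 0.13 (limma, adjusted p = 0.00534). The mean of the 26 was 11.67 to 11.86 in calorie restricted arrays and 10.31 to 10.93 in ad libitum arrays, and includes none of the 6 granule genes. Whether the sorted samples differed in enterocyte content was not tested, nor was the part of these markers in the values of Pla2g12b and Lgals3.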

How the data were processed

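Per the submitters' processing notes, the authors used Affymetrix Expression Console; the deposited value of each transcript cluster was taken as log2 expression from its range of about 3 to 15. Neither the software's version nor its normalization algorithm is stated in the labels, and no detection call was used. Array medians were 7.24 to 7.44, and correlations between arrays, across genes, 0.949 to 0.993. The number of arrays limits the precision.

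Of 35556 clusters, 21789 had 1 gene symbol, 1621 several and 12146 none here. The brightest cluster was kept for each of 19938 genes, and those averaging under the 40th percentile of clusters (6.79) were not tested. The diets were compared with limma 3.58.1 (R 4.3.3), lmFit and eBayes with an intensity trend and no covariates, tested on simulated data. Alternatives were 2 scalings, 2 filters, the mean of clusters, 2 moderation settings, array weights, a replicate block, and the omission of each array in turn. Same-numbered arrays did not deviate together (r across genes -0.126, -0.265 and -0.550), so the numbers were not taken as pairs. Differently numbered arrays of the diets gave r from -0.731 (calorie restricted 4 with ad libitum 1) to 0.641 (calorie restricted 4 with ad libitum 3). Whether arrays form sets across the diets was not tested. Members, gene lists and motifs were chosen with earlier results of these data, or the sequences, known. Genes named were the members, in each list the smallest p and highest means, and the 3 genes most like each member; Csf1r, Adgre1 and C1qb were chosen after their values were seen. Figures were drawn with matplotlib 3.10.9.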

Additional observations from a re-analysis of the deposited data

Results flagged for a closer look

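Itln1 in calorie restricted replicate 4 stood apart from the other arrays of its diet. It was at 13.82, with the nearest other array at 14.03, and this gap made up 0.837 of the range of the 4 arrays, above Dixon's 95% critical value for 4 samples. The same share was 0.688 for Mmp7 and 0.597 for Ang4, below that value, and 6 genes were examined in the calorie restricted group. Chance flags about 1 in 20 groups. Without this array the Itln1 difference was 0.0036 in place of -0.052.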

How the results depend on the processing

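Over 16 alternatives 0 of the 6 genes passed the threshold in any (96 values, lowest adjusted p = 0.109, for Pla2g2a with array weights, where its difference of 0.17 had an interval of 0.03 to 0.31 and an unadjusted p of 0.0241), and the widest interval bounds were -0.32 and 0.50. With array weights, 4052 of the genes tested had an unadjusted p below 0.05 in limma, against 1247 in the main fit. A sign changed in 15 of the 96, all near 0. The filters, the mean of clusters and the moderation settings left each difference as reported, so they could turn no sign. The replicate block gave the same differences as leaving out calorie restricted replicate 4, so its sign changes repeat those of that fit. Median centring moved all 6 differences up by the same amount. Other causes were not tested. Median centring gave 0.083 for Lyz1, 0.039 for Mmp7, 0.011 for Ang4 and 0.034 for Itln1, and also turned Clps (0.037) and Defa24 (0.041). Array weights gave 0.012 for Lyz1 and 0.031 for Mmp7, and quantile normalization -0.0017 for Lyz2. The replicate block, in which the fourth calorie restricted array has no partner, gave 0.012 for Lyz1, 0.024 for Mmp7 and 0.0036 for Itln1. Leaving out 1 array gave -0.015 to 0.012 for Lyz1, -0.0075 to 0.080 for Lyz2, -0.084 to 0.024 for Mmp7 and -0.078 to 0.0036 for Itln1. It moved Ang4 from -0.076 to between -0.11 and -0.026, and Pla2g2a from 0.093 to between 0.031 (without ad libitum replicate 3) and 0.17 (without ad libitum replicate 1), with no change of sign.

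The counts over all genes, 88 higher and 1 lower, were less stable. Higher genes numbered 53 with quantile normalization, 963 with array weights and 0 with the replicate block (limma, 988 at an unadjusted p below 0.05), and 12 to 97 without 1 array. Lower genes numbered 0 with quantile normalization, median centring, the 60th percentile filter or the block, 2 without a filter, 392 with array weights, and 0 to 9 without 1 array. In these limma fits, 1118 genes with quantile normalization, 1429 with median centring and 945 with the 60th percentile filter had an unadjusted p below 0.05. The replicate block ended the calls of Pla2g12b, Lgals3 and Cyp2b10 (limma, adjusted p = 0.175, 0.105 and 0.0711), and quantile normalization ended that of Lgals3 (0.0637). Array weights added calls of Reg3a, Muc2, Reg1 and Pla2g2e (limma, adjusted p = 0.0185, 0.0202, 0.0448 and 0.0497). Signal near the top of the range limits what a difference there can show.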
